A study of Mus musculus with 6 samples.

Results

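AP-1 is a dimeric transcription factor built from Fos and Jun family proteins, and immediate early genes are those that cells switch on within minutes of a growth factor, wound or stress signal without making new protein first. The 10 genes described here are the Fos family (Fos, Fosb, Fosl1, Fosl2), the Jun family (Jun, Junb, Jund) and 3 further early-response genes (Atf3, Egr1, Ier2), taken by gene name from a table of 54532 genes. All 10 were found, and all passed the filter of a mean of at least 1 FPKM, which kept 12629 genes for the tests. FPKM is the number of sequenced fragments per kilobase of gene at a common depth, so levels can be compared between genes.

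The tissue was mouse back epidermis, in 3 samples here called Spry1_KO, with the genotype Spry1flox/flox K14-Cre-ERT2, and 3 called Control, with the genotype Spry1flox/flox and no Cre. K14-Cre-ERT2 is a recombinase made in basal keratinocytes, where keratin 14 is expressed, and it acts only in the presence of tamoxifen. Both genotypes were gavaged with tamoxifen (0.1 mg per g) on 4 occasions a week over 4 weeks, so the drug is shared by all samples. A Cre control with intact Spry1 alleles was not among the samples, so Cre and the loss of Spry1 cannot be told apart, and the labels give neither age nor sex. Whether each sample came from its own animal is not stated, and the p-values below rest on sample-to-sample spread that may be partly technical.

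Sprouty1, the product of Spry1, dampens growth factor signalling to ERK, a kinase that switches on many immediate early genes. In epidermis AP-1 proteins are expressed in layers, take part in keratinocyte differentiation and are induced by wounding, and tissue handling and cell dissociation are known to induce many of the same genes. The sources used here do not say how the epidermis was separated or how long this took.

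Reads recovered from the FPKM values summed to 18383323 to 21024716 per sample, and the members had between 33 and 75890 reads in a sample. Spry1 read 1.06, 1.49 and 1.28 FPKM in the Spry1_KO samples and 25.8, 28.2 and 34.4 FPKM in the Control samples, a log2 fold change of -3.74 ± 0.13 (SE; limma adjusted p = 7.21e-06). The keratinocyte markers Krt5, Krt14, Krt1, Krt10, Trp63 and Dsp summed to 21877 to 27501 FPKM in Spry1_KO and 11754 to 14227 FPKM in Control samples. Of these Krt5, Krt14 and Krt1 rose, Krt10 and Trp63 fell, and Dsp did not pass. Marker sums of other cell types also differed between the genotypes: those of melanocytes were 203 to 207 FPKM in Spry1_KO and 7.81 to 10.8 FPKM in Control samples (4 of 4 rose), of macrophages and neutrophils 296 to 686 and 11.1 to 19 FPKM (4 of 5 tested rose and Adgre1 fell), of Langerhans cells 278 to 407 and 683 to 1136 FPKM (2 of 3 fell), of fibroblasts 1.71 to 5.79 and 5.5 to 13 FPKM (2 of 4 fell), of skeletal muscle 0.99 to 2.04 and 11.5 to 48 FPKM (4 of 4 fell), and of red blood cells 18 to 83.8 and 70.4 to 158 FPKM (1 of 3 fell). The filter took the mean over both genotypes, so a gene under 1 FPKM in one was tested only if higher in the other. That fixed the direction of the calls for the muscle genes tested, which averaged 0.0818 to 0.786 FPKM in Spry1_KO. The same held for the fibroblast genes Col1a2 and Col3a1 (0.513 and 0.752 FPKM in Spry1_KO). In Control samples Mlana, C1qc and Cd14 averaged 0.641, 0.999 and 0.825 FPKM, which fixed theirs as higher. The sums do not depend on the filter. Of the macrophage and neutrophil sum, S100a9 alone read 272, 651 and 231 FPKM in Spry1_KO and 2.94, 5.87 and 2.16 FPKM in Control samples, and the neutrophil gene Ly6g read 0.0528 FPKM in Spry1_KO replicate 1 and 0 in all other samples. In bulk tissue more or fewer cells of a type and more or less RNA per cell cannot be told apart, and the part of these cells in the results for the members was not tested. Control replicate 3 stood apart from the other Control samples on the second principal component (8.5% of the variance), and Spry1_KO replicate 2 stood alone in the Y-linked gene Eif2s3y, with 19.3 FPKM against at most 0.203 FPKM elsewhere. Spry1_KO replicate 2 also read 15.9 FPKM for Ddx3y, against at most 0.115 FPKM elsewhere, and 1.31 FPKM for Xist, against 20 to 89.1 FPKM. By these genes it was male and the other samples were female, so only the Spry1_KO group mixed the sexes. Of all genes tested, 54% passed limma at an adjusted p under 0.05 (29.6% higher and 24.4% lower in Spry1_KO), and counts of members are to be read against these shares. Scaling to recovered reads moved the median log2 fold change of all genes by -0.11 and TPM scaling by -0.25, which turned the split of 3736 higher and 3079 lower genes into 2900 and 3742, and into 2055 and 4470.

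Of the 10 members, 3 fell in Spry1_KO epidermis and none rose, where 24.4% of all genes tested fell. Fosb, Jun and Jund were those that fell. Of the 7 members that missed the threshold, Fosl1 alone was higher on average in Spry1_KO, and 6 were lower. At an unadjusted p under 0.05 there were 5 members, where 60.1% of all genes tested were. In limma-voom on recovered reads, a test on counts, 6 members were called (1 higher and 5 lower), where 53.3% of all genes were (26.7% higher and 26.6% lower). The median log2 fold change was -0.83 over the members and 0.03 over all genes tested. Values of the 2 genotypes did not overlap for 6 members, all lower in Spry1_KO. The same held for 64.2% of all genes tested, 29.4% with Spry1_KO lower and 34.9% with Spry1_KO higher. Calls for single members turned on different samples, and each sample whose removal changed a call is named with the member.

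**Figure D1:**
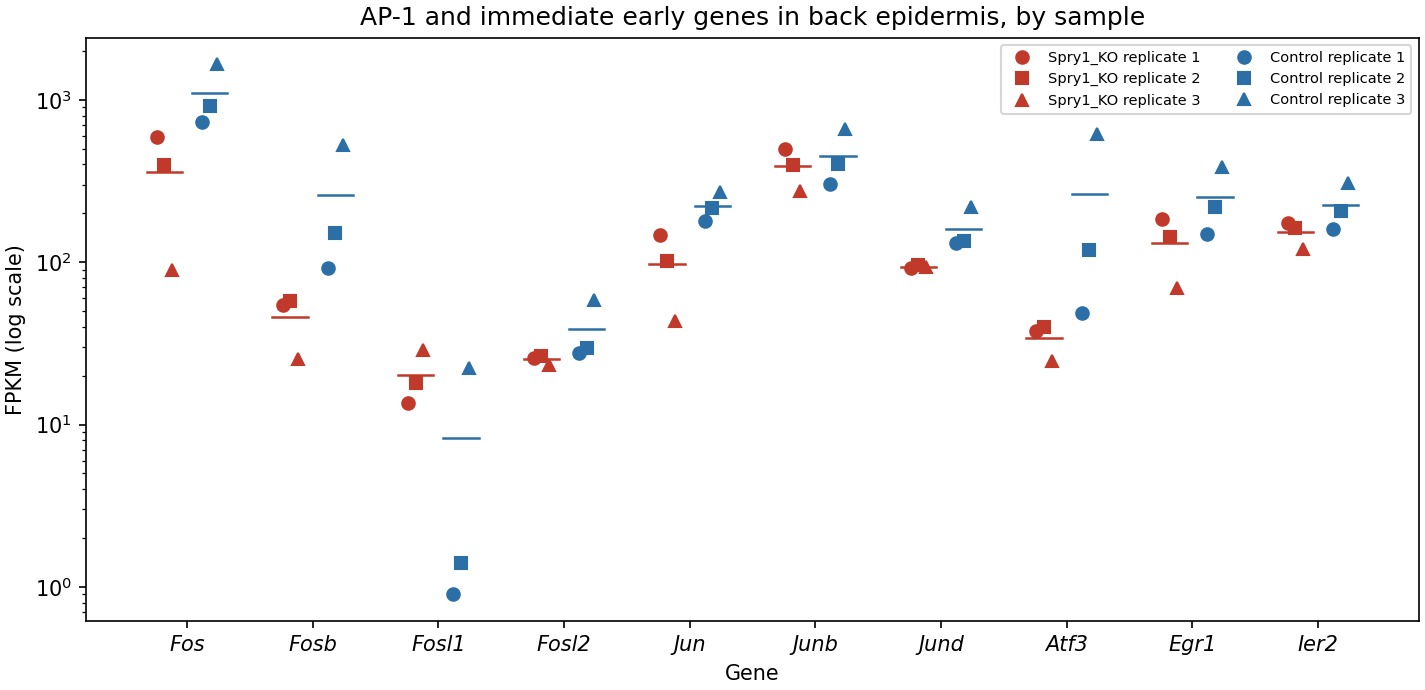
FPKM of the 10 members in each sample on a log axis, with Spry1_KO samples in red to the left of Control samples in blue; symbols mark the replicate and bars the mean of 3 samples. Control replicate 3 (blue triangles) is the highest Control sample for all 10 members, and Spry1_KO replicate 3 (red triangles) is the lowest Spry1_KO sample for 8 of them.

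Fos encodes the founding subunit of AP-1 and is the textbook immediate early gene. It lies on chromosome 12 from 85473890 to 85477273 (GRCm38, plus strand). It read 592, 395 and 89.9 FPKM in Spry1_KO samples and 726, 920 and 1655 FPKM in Control samples. All Spry1_KO samples were below all Control samples, and within Spry1_KO replicate 3 was far below the others. The means were 359 ± 253 FPKM in Spry1_KO and 1101 ± 490 FPKM in Control (SD, n = 3 each), which placed Fos 172nd by mean level among all genes in Spry1_KO and 36th in Control. On the log2 scale Fos differed by -1.90 ± 0.69 (SE; 95% interval -3.54 to -0.26), which missed the threshold (limma adjusted p = 0.0533), and without Spry1_KO replicate 3 by -1.10 (0.0633). The threshold was passed with TPM scaling (0.0376), scaling to recovered reads (0.0459), limma-voom (0.0359) and without Spry1_KO replicate 1 (0.0302), and the adjusted p of Fos ranged from 0.0302 to 0.132 over 15 alternatives.

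Fosb, a close relative of Fos that is also induced by stimuli, lies on chromosome 7 from 19302696 to 19310051 (minus strand). It read 54.8, 57.3 and 25.5 FPKM in Spry1_KO samples and 91.6, 152 and 530 FPKM in Control samples. The groups did not overlap, and Control replicate 3 was 4.34 times the mean of the other Control samples. Fosb fell by 2.15 ± 0.64 (SE) on the log2 scale, with a limma adjusted p of 0.027. Without Control replicate 3 it fell by 1.43 (limma adjusted p = 0.0241), and the call was lost without Spry1_KO replicate 1 (0.054) or Spry1_KO replicate 3 (0.0903) and with no filter on low values (0.0654).

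Fosl1 encodes Fra-1, a Fos family protein without the strong activation domain of Fos whose gene is itself raised by AP-1 and sustained ERK activity. The gene lies on chromosome 19 from 5447547 to 5455946 (plus strand), and its annotated span overlaps that of Ccdc85b on the opposite strand. As no source states that reads were counted by strand, reads of the pair cannot be told apart in the stretch that both spans share. Fosl1 read 13.6, 17.9 and 28.8 FPKM in Spry1_KO samples and 0.9, 1.41 and 22.3 FPKM in Control samples. Control samples 1 and 2 were far below every Spry1_KO sample, while Control replicate 3 lay inside the Spry1_KO range, at 19.3 times the mean of the other Control samples. Over all samples the log2 fold change was 2.09 ± 0.91 (SE), with a 95% interval of -0.09 to 4.26, and it did not pass (limma adjusted p = 0.093). Without Control replicate 3 Fosl1 rose by 3.24 (limma adjusted p = 0.000473), the mean of Spry1_KO being 17.4 times that of Control samples 1 and 2, and it also passed with array weights (0.00292) and in limma-voom (0.0398). Its adjusted p over 15 alternatives ran from 0.000473 to 0.248. Ccdc85b averaged 41.5 FPKM in Spry1_KO and 62.7 FPKM in Control samples.

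Fosl2 encodes Fra-2, the other Fos-related antigen, which is present in differentiating keratinocytes. It lies on chromosome 5 from 32135801 to 32157842 (plus strand). It read 25.8, 26.4 and 23.2 FPKM in Spry1_KO samples and 27.4, 29.6 and 58.5 FPKM in Control samples. The groups did not overlap, but Control samples 1 and 2 lay just above the Spry1_KO samples and Control replicate 3 stood alone. The log2 fold change was -0.51 ± 0.27 (SE; limma adjusted p = 0.15), with a 95% interval of -1.16 to 0.13 that was -0.39 to 0.04 without Control replicate 3.

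The makeup of the Fos family within a sample does not depend on the scaling of samples. Fosl1 made up 1.98%, 3.60% and 17.2% of the summed FPKM of the family in Spry1_KO samples and 0.106%, 0.128% and 0.986% in Control samples. Every Spry1_KO sample was above every Control sample, Control replicate 3 included. Fosl2 made up 3.77%, 5.33% and 13.9% in Spry1_KO and 3.24%, 2.68% and 2.58% in Control samples, again without overlap. Fos itself made up 86.3%, 79.5% and 53.7% in Spry1_KO and 85.8%, 83.4% and 73.1% in Control samples, where the groups overlapped. Fos was 43.7, 22.1 and 3.12 times Fosl1 in Spry1_KO samples and 807, 653 and 74.1 times Fosl1 in Control samples. Shares of members are given as descriptions and were not tested.

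The Jun proteins form AP-1 dimers with each other and with Fos proteins. Jun, on chromosome 4 from 95049034 to 95052222 (minus strand), encodes the strongest activator of the family. It read 146, 102 and 43.7 FPKM in Spry1_KO samples and 178, 215 and 271 FPKM in Control samples. The groups did not overlap, and the order of the samples was that of Fos. Jun fell by 1.32 ± 0.42 (SE) on the log2 scale (limma adjusted p = 0.0332), with means of 97.0 ± 51.2 FPKM in Spry1_KO and 221 ± 47.1 FPKM in Control (SD, n = 3 each). Its call was lost in 4 of the 6 fits that left out 1 sample: without Control replicate 1 (limma adjusted p = 0.0521), Control replicate 2 (0.0729), Control replicate 3 (0.083) or Spry1_KO replicate 2 (0.059), as it was with no filter on low values (0.0767).

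Jund, on chromosome 8 from 70698949 to 70700616 (plus strand), encodes the Jun protein that resting cells keep and that depends least on stimulation. It read 92.0, 95.8 and 93.9 FPKM in Spry1_KO samples and 131, 135 and 218 FPKM in Control samples. The Spry1_KO samples were nearly equal, and the Control samples were all higher. Jund fell by 0.73 ± 0.20 (SE) on the log2 scale (limma adjusted p = 0.0175), and without Control replicate 3 by 0.50 (0.00225). It was called in 13 of 15 alternatives, more than any other member, and was lost only without Spry1_KO replicate 1 (0.054) or Spry1_KO replicate 3 (0.0507), where the log2 fold changes were -0.72 and -0.73.

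Junb, on chromosome 8 from 84974484 to 84978718 (minus strand), encodes a Jun protein that can restrain Jun and limits inflammation in skin of mice. It read 499, 398 and 274 FPKM in Spry1_KO samples and 301, 401 and 657 FPKM in Control samples. The groups overlapped widely, and its log2 fold change was -0.18 ± 0.33 (SE; limma adjusted p = 0.667) with a 95% interval of -0.96 to 0.60. The direction turned without Control replicate 3 (0.12) or Spry1_KO replicate 3 (0.05). The span of Junb overlaps Prdx2 on the opposite strand, which averaged 88.5 FPKM in Spry1_KO and 91.6 FPKM in Control samples. Within the Jun family Junb made up 67.7%, 66.9% and 66.6% of the summed FPKM in Spry1_KO and 49.4%, 53.4% and 57.3% in Control samples, without overlap. Jun made up 19.8%, 17.1% and 10.6% in Spry1_KO and 29.2%, 28.6% and 23.7% in Control samples, also without overlap. The family sums stood at 0.932, 0.834 and 0.407 (Fos over Jun family) in Spry1_KO samples and at 1.39, 1.47 and 1.98 in Control samples.

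**Figure D2:**
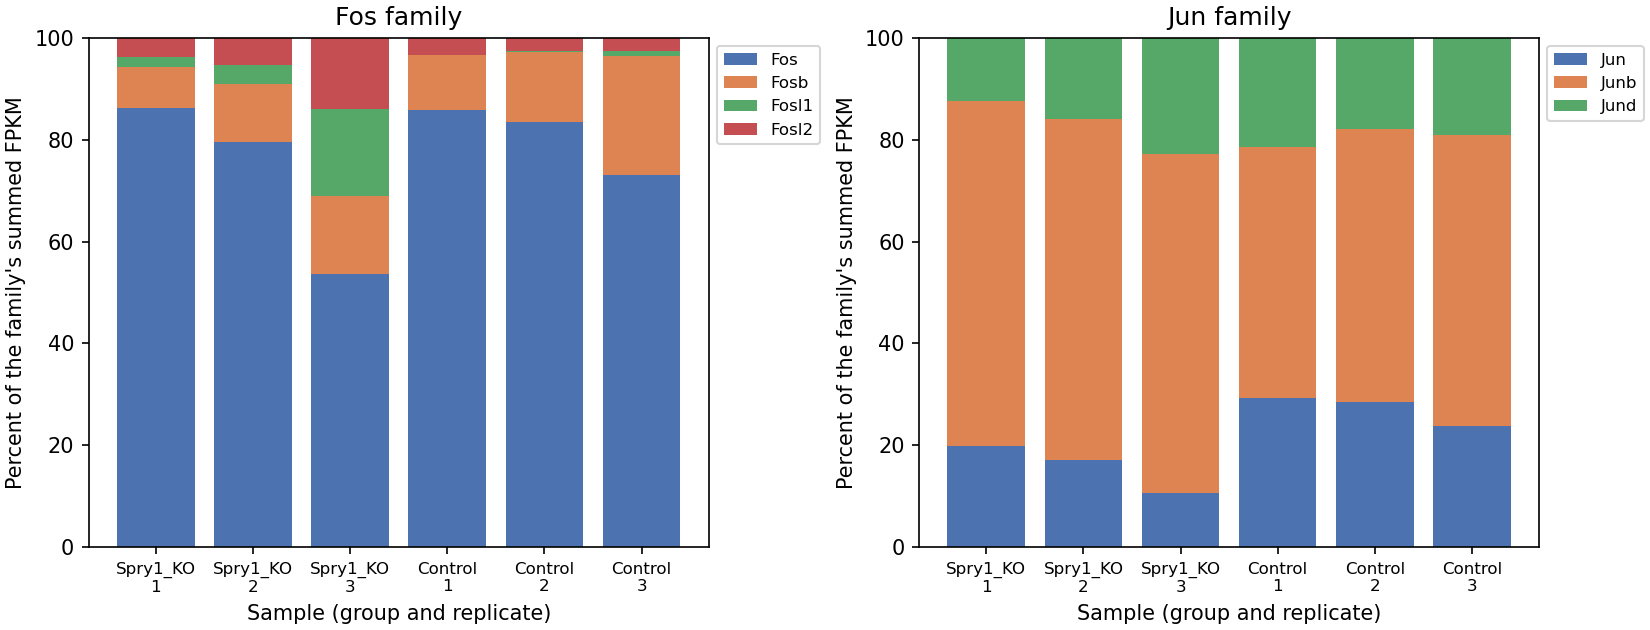
Share of each gene in the summed FPKM of the Fos family (left) and the Jun family (right), in percent, with a bar for each sample and Spry1_KO samples left of Control samples. Fosl1 and Fosl2 take more of the Fos family in each Spry1_KO sample, up to 17.2% and 13.9% in replicate 3, and Junb takes 66.6% to 67.7% of the Jun family in Spry1_KO against 49.4% to 57.3% in Control.

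Atf3 encodes a stress-induced factor related to Fos and Jun that pairs with Jun proteins. It lies on chromosome 1 from 191170296 to 191218039 (minus strand). It read 37.6, 40.1 and 24.7 FPKM in Spry1_KO samples and 48.3, 119 and 617 FPKM in Control samples. The groups did not overlap, and the Control samples were far apart. The log2 fold change was -2.16 ± 0.84 (SE; limma adjusted p = 0.0646), with a 95% interval of -4.15 to -0.18. Without Control replicate 3, which was 7.36 times the mean of the other Control samples, it fell by 1.16 (limma adjusted p = 0.0492), and without Control replicate 1 by 2.99 (0.0146).

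Egr1 encodes a zinc finger factor that ERK induces through serum response factor and its ETS partners. It read 184, 142 and 69.8 FPKM in Spry1_KO samples and 150, 220 and 385 FPKM in Control samples. Ier2, a small early-response gene on chromosome 8 from 84661331 to 84662852 (minus strand), read 175, 163 and 120 FPKM in Spry1_KO samples and 159, 207 and 306 FPKM in Control samples. For both genes Spry1_KO replicate 1 exceeded Control replicate 1, so the groups overlapped. Egr1 had a log2 fold change of -0.93 ± 0.44 (SE; limma adjusted p = 0.119; 95% interval -1.98 to 0.13) and passed in none of 15 alternatives. Ier2 had -0.51 ± 0.26 (SE; limma adjusted p = 0.131; 95% interval -1.12 to 0.10) and passed without Control replicate 1 (0.0482) and in no other alternative.

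**Figure D3:**
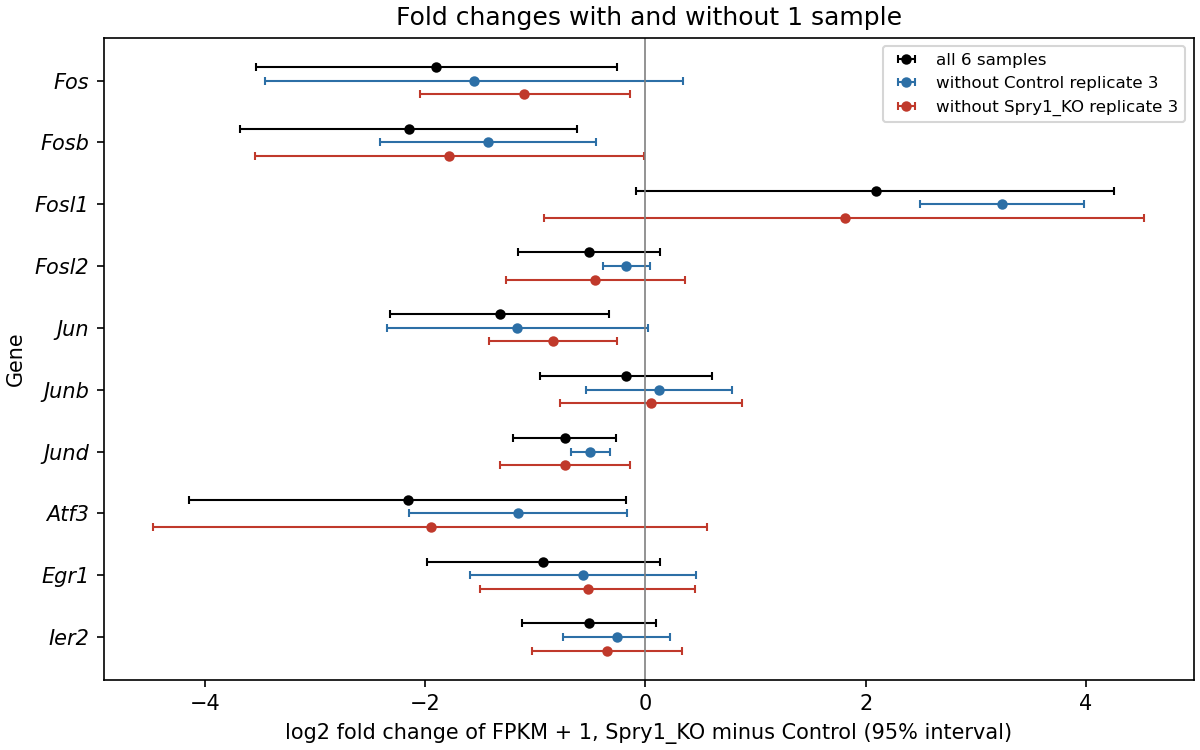
Log2 fold change of FPKM + 1, Spry1_KO minus Control, for each member with its 95% interval from limma, with all 6 samples (black), without Control replicate 3 (blue) and without Spry1_KO replicate 3 (red). Fosl1 moves to 3.24 with a narrow interval without Control replicate 3, and Junb lies at -0.18, 0.12 and 0.05.

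The order of mean levels within a genotype was led by Junb (390 FPKM), Fos (359), Ier2 (153) and Egr1 (132) in Spry1_KO, and by Fos (1101), Junb (453), Atf3 (262) and Fosb (258) in Control. Among neighbours in the Spry1_KO order only Jund and Fosb had samples that did not overlap. In Control the samples of Fos and Junb, of Jund and Fosl2, and of Fosl2 and Fosl1 did not overlap, and the other neighbours did. Atf3 and Fosb stood 192nd and 193rd by mean level among all genes in Control and 1619th and 1177th in Spry1_KO. Their Control means of 262 ± 310 and 258 ± 237 FPKM (SD, n = 3 each) had spreads about as large as the means.

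The spread between samples of a genotype was large for the members. Their residual SD on the log2(FPKM + 1) scale, after taking out the genotype means, had a median of 0.68, against 0.15 for all genes tested (quartiles 0.10 and 0.23). All 10 members lay above that upper quartile, from the 84.1th percentile of all genes for Jund to the 99.9th for Fosl1. Control replicate 3 was the highest Control sample for all 10 members, as it was for 38.4% of all genes tested, and its median ratio to the mean of the other Control samples was 2.03 over the members and 0.981 over all genes. Spry1_KO replicate 3 was the lowest Spry1_KO sample for 8 members, as it was for 34% of all genes. The exceptions were Jund and Fosl1, and Fosl1 was highest in that sample (28.8 FPKM), where Fos was lowest (89.9 FPKM).

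Members varied together within a genotype. Pearson correlations of the deviations from the genotype means, over the 6 samples, had a median of 0.84 over the 45 pairs of members, and 25 pairs were above 0.8, as were 7.46% of all pairs of genes tested. Fos and Jun had 0.99, Fos and Egr1 0.94 and Fos and Junb 0.86, while Fos and Fosl1 had 0.14. Jund, Fosl1, Fosl2 and Atf3 had 0.14 to 0.56 with Fos and 0.87 to 0.99 with each other. These correlations are descriptions over few samples, and all genes share each library's scaling. The genes most like Fos by this measure were Atp23 (0.998), Troap (0.995), Rbm28 (0.995), Atf7 (0.995) and Polr3c (0.993), and 4 members and 5.05% of all genes tested were above 0.8 with Fos. Most of these genes moved far less than Fos, as in Rbm28 with 10.9, 10.6 and 9.61 FPKM in Spry1_KO and 5.75, 5.79 and 6.12 FPKM in Control samples.

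Promoter windows are shown for Fos, Jun, Junb, Fosb and Atf3, which vary with each other to different degrees, because the AP-1, cyclic AMP response and serum response motifs are the usual inputs of early genes. RefSeq windows (GRCm38.p6) of the 250 bases before the start were at hand for 7 members, which did not include Fosl1, Egr1 and Ier2. None held the AP-1 motif TGANTCA, the cyclic AMP response element TGACGTCA or a CArG box, the motif of serum response factor, which 6.75%, 1.55% and 1.47% of all 32851 windows held on either strand. Sites more than 250 bases before the start were not searched. Sites that differ from these patterns by a letter, such as tgacatca in Jun, were not counted. The Egr motif GCGNGGGCG was found in Fosb and Fosl2, and in 4.7% of all windows. The shorter motif TGACG, added after the windows had been read and contained in the cyclic AMP response element, was found on either strand in Fos, Fosb, Atf3 and Junb, and in 17.8% of all windows. The last 140 bases before the start follow, 5′ to 3′ on the gene's strand, with TGACG or its reverse complement in capitals. The windows are chr12:85473750-85473889 (plus) for Fos, chr4:95052223-95052362 (minus) for Jun, chr8:84978749-84978888 (minus) for Junb, chr7:19310046-19310185 (minus) for Fosb and chr1:191183334-191183473 (minus) for Atf3. The windows end at RefSeq starts, which for some members differ from the GENCODE spans given above. The RefSeq starts of Atf3, Fosl2 and Fosb lie inside those spans. The window of Jund (chr8:70697489-70697738, plus) ends well before its span, which begins at 70698949, and that of Junb ends just short of its span.
Fos: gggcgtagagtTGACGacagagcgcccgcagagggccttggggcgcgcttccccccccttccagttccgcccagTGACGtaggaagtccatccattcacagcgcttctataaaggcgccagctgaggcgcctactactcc
Jun: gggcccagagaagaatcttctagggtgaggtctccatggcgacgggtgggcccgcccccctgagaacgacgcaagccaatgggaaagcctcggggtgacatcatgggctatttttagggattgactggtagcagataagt
Junb: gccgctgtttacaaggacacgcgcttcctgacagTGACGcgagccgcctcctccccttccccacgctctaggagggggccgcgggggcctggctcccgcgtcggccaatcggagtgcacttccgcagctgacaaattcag
Fosb: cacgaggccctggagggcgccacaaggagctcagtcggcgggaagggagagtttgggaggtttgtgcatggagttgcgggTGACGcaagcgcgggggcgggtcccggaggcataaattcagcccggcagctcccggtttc
Atf3: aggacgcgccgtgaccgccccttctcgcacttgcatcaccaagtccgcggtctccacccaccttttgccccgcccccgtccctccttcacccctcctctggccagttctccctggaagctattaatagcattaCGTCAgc
Fos held 2 of these shorter motifs in this stretch, Fosb, Atf3 and Junb held 1 each, and Jun held none. A match is a description of letters and says nothing of what binds there.

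Other AP-1 related genes moved both ways. Of 11 genes on a list of further bZIP factors, 8 were tested, of which 2 rose and 3 fell (median log2 fold change 0.02, and 0.03 over all genes). Over all genes tested 29.6% rose and 24.4% fell. Without Control replicate 3 there were 5 risen and 3 fallen, where 3977 of 12579 genes rose and 3313 fell. Batf was tested only in that fit, where it passed the filter through Spry1_KO alone (1.59, 1.11 and 1.82 FPKM, and 0.507 and 0.545 FPKM in Control replicates 1 and 2). Jdp2, a repressor that pairs with Jun proteins, read 2.22, 1.88 and 2.60 FPKM in Spry1_KO and 0.562, 0.509 and 0.525 FPKM in Control samples (limma adjusted p = 0.000628, higher). At a Control mean of 0.532 FPKM it passed the filter only through Spry1_KO, which fixed its direction as higher. Maf fell by 0.73, Mafk by 0.63 and Atf7, a partner of Jun, by 0.58 (limma adjusted p = 0.00338, 0.033 and 0.00168). The call for Mafk was lost without Spry1_KO replicate 1 (0.0728), Spry1_KO replicate 2 (0.0693) or Spry1_KO replicate 3 (0.0992) and with no filter on low values (0.0713).

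Immediate early genes outside the members moved both ways as well. Of 33 genes 32 were tested, of which 8 rose and 6 fell, with a median log2 fold change of -0.18. Over all genes tested 29.6% rose and 24.4% fell. Under TPM scaling 6 of the early genes rose and 9 fell, where 2055 of 12629 genes rose and 4470 fell. Without Control replicate 3 there were 12 risen and 5 fallen, where 3977 of 12579 genes rose and 3313 fell. Dusp1, a phosphatase that switches off MAP kinases, read 165, 90.2 and 42.1 FPKM in Spry1_KO samples and 357, 427 and 462 FPKM in Control samples. It fell by 2.25 ± 0.45 (SE; limma adjusted p = 0.00522). Cyr61, a secreted matrix protein, read 35.0, 26.5 and 17.2 FPKM in Spry1_KO and 91.4, 118 and 229 FPKM in Control samples, and fell by 2.38 ± 0.38 (SE; limma adjusted p = 0.00205). In both genes, as in Fos, the samples did not overlap and Spry1_KO replicate 3 was the lowest. Btg2, an antiproliferative gene, fell by 1.10 (limma adjusted p = 0.0123).

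Klf2, a zinc finger factor best known from endothelium and T cells, read 1.70, 1.68 and 1.35 FPKM in Spry1_KO and 7.13, 9.03 and 50.2 FPKM in Control samples. It fell by 2.65 (limma adjusted p = 0.0125), or by 1.81 without Control replicate 3. T cell markers summed to 8.75 to 13.4 FPKM in Spry1_KO and 77.1 to 107 FPKM in Control samples (4 of 4 fell), and the endothelial markers Pecam1, Cdh5 and Kdr to 0.492 to 0.997 and 0.461 to 2.68 FPKM. Control replicate 3, the highest sample for Klf2, had the lowest of the 3 Control sums for both sets of markers. This is 1 sample, and the part of these cells in the result was not tested.

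The early genes that rose included Plk3, Arc, Sgk1 and Cebpd. Plk3, a stress-response kinase, read 26.5, 23.0 and 20.0 FPKM in Spry1_KO and 5.94, 6.20 and 11 FPKM in Control samples (log2 fold change 1.51 ± 0.22, SE; limma adjusted p = 0.0015). Arc, an early gene best known from neurons, read 16.2, 9.97 and 13.3 FPKM in Spry1_KO and 0.879, 3.22 and 3.12 FPKM in Control samples (2.12 ± 0.33, SE; limma adjusted p = 0.002). Cebpd, a factor of acute inflammation, rose by 1.10 and Sgk1, a kinase induced by serum and glucocorticoid, by 0.94 (limma adjusted p = 0.000973 and 0.0032). Of the 32 genes, 23 were highest in Control replicate 3 among Control samples and 26 were lowest in Spry1_KO replicate 3 among Spry1_KO samples. The shares over all genes tested were 38.4% and 34%. The orphan receptor gene Nr4a1, named after its values were seen, read 48.4, 42.0 and 37.1 FPKM in Spry1_KO and 20.5, 42.4 and 299 FPKM in Control samples (limma adjusted p = 0.592), and its log2 fold change of -0.60 turned to 0.50 without Control replicate 3.

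**Figure D4:**
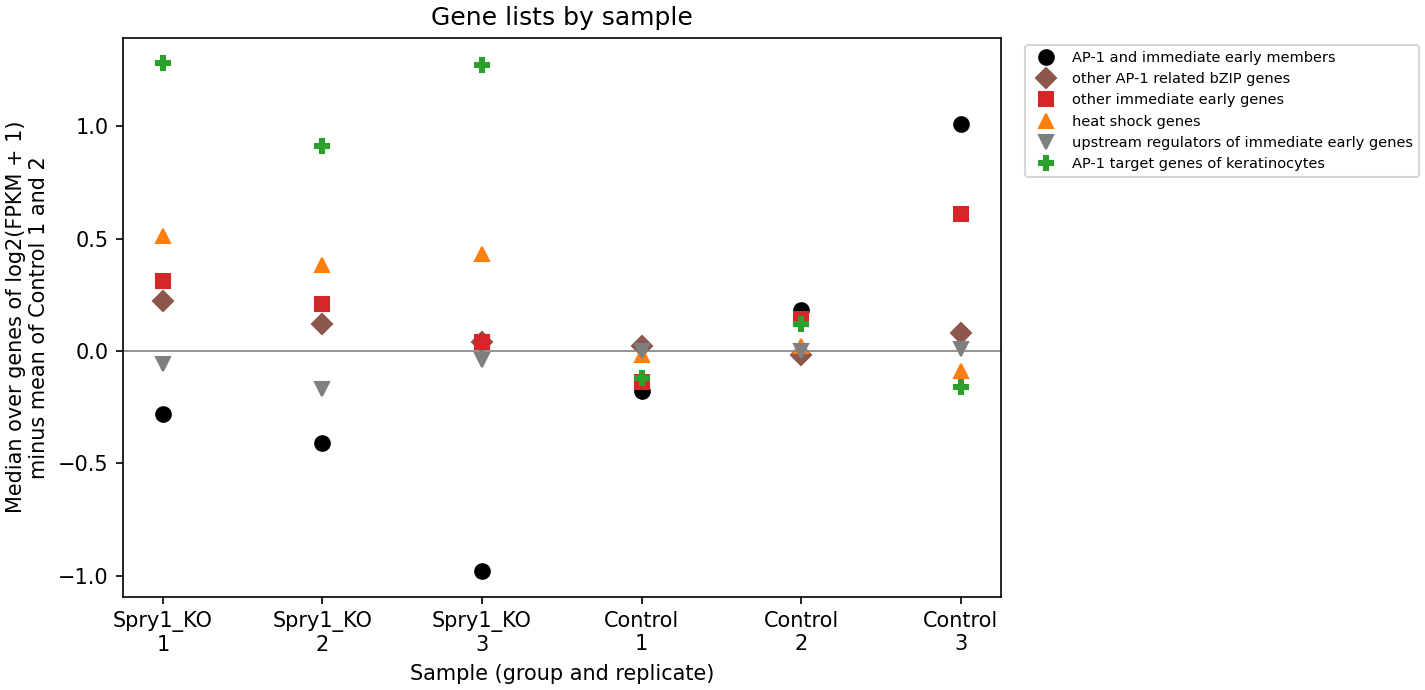
Median over the tested genes of each list of log2(FPKM + 1) minus the mean of Control replicates 1 and 2, for each sample, with Spry1_KO samples left of Control samples. The members (black circles) run from -0.98 in Spry1_KO replicate 3 to 1.01 in Control replicate 3, and the heat shock genes (orange) stand at 0.38 to 0.51 in Spry1_KO and at -0.09 to 0.02 in Control.

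Heat shock genes are a second group known to respond to tissue handling, whose part in these values was not tested. Of 12 genes tested 8 rose and 2 fell, with a median log2 fold change of 0.44. Over all genes tested 29.6% rose and 24.4% fell. Under TPM scaling 5 rose and 3 fell, where 2055 of 12629 genes rose and 4470 fell. When scaled to recovered reads 6 rose and 3 fell, where 2900 of 12629 genes rose and 3742 fell. Control replicate 3 was the highest Control sample for 3 of the 12 heat shock genes, at a median of 0.935 times the others, where the members had 2.03. One of these was the co-chaperone gene Dnajb1, named after its values were seen, with 54.9, 53.6 and 56.2 FPKM in Spry1_KO and 57.0, 66.5 and 83.9 FPKM in Control samples (limma adjusted p = 0.103). It was called, as lower, without Control replicate 1 (0.0343), with TPM scaling (0.029) and when scaled to recovered reads (0.0439). Hspa8, the constitutive cytosolic chaperone, read 457, 428 and 480 FPKM in Spry1_KO and 165, 184 and 178 FPKM in Control samples, and rose by 1.37 ± 0.10 (SE; limma adjusted p = 8.78e-05). The mitochondrial chaperonin genes Hspd1 and Hspe1 rose by 1.11 and 1.04 (limma adjusted p = 0.000182 and 0.000264). The co-chaperone gene Bag3 rose as well, with 21.5 ± 2.75 FPKM in Spry1_KO and 10.2 ± 0.487 FPKM in Control samples (SD, n = 3 each; limma adjusted p = 0.000411). Hspb1, a small heat shock protein abundant in differentiating keratinocytes, read 457, 580 and 443 FPKM in Spry1_KO and 1237, 1151 and 960 FPKM in Control samples, and fell by 1.18 (limma adjusted p = 0.00107). The inducible Hspa1a read 25, 21.8 and 18 FPKM in Spry1_KO and 31.8, 32.8 and 30.0 FPKM in Control samples, and fell by 0.54 (limma adjusted p = 0.00945). Hspa1b, the other Hspa1 gene on the list and outside the naming rule, went the other way at a higher level. It read 150, 128 and 142 FPKM in Spry1_KO and 103, 107 and 105 FPKM in Control samples, and rose by 0.40 (limma adjusted p = 0.00883).

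Most genes upstream of the early response did not pass. Of 16 regulators 15 were tested, of which 4 rose and 1 fell (median -0.16). Over all genes tested 54% passed, with 29.6% risen and 24.4% fallen. TPM scaling gave 1 regulator risen and 7 fallen, where 2055 of 12629 genes rose and 4470 fell. Scaling to recovered reads gave 4 and 4, where 2900 of 12629 genes rose and 3742 fell. Elk3, a ternary complex factor that can repress early genes, read 7.07, 6.66 and 7.04 FPKM in Spry1_KO and 1.11, 1.68 and 0.947 FPKM in Control samples, and rose by 1.83 ± 0.13 (SE; limma adjusted p = 9.74e-05). Elk1, its activating relative, fell by 0.38 (limma adjusted p = 0.0119). Rps6ka1, Mkl1 and Mapk14, which encode a kinase downstream of ERK, a coactivator of serum response factor and p38 alpha, rose by 0.47, 0.47 and 0.36, and none of these 3 calls held under TPM scaling (limma adjusted p = 0.21, 0.195 and 0.406).

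Genes known as AP-1 targets in keratinocytes rose in 8 of 12 tested and fell in 1, of 16 on the list, with a median log2 fold change of 1.27. Of all genes tested 29.6% rose and 24.4% fell. Mmp13, Plaur and Spp1 averaged 0.0132, 0.089 and 0.938 FPKM in Control samples. They passed the filter only through Spry1_KO, which fixed their direction as higher. Mmp9, at 0.967 FPKM in Spry1_KO, passed only through Control samples. With no filter 11 targets rose and 1 fell, where 4000 of 28340 genes rose and 3709 fell. Of 5 macrophage and neutrophil markers tested 4 rose, as most targets did. Among them C1qb read 32, 17.8 and 38 FPKM in Spry1_KO and 2.92, 2.11 and 1.46 FPKM in Control samples. The macrophage marker Adgre1 fell, with 2.27, 1.17 and 2.18 FPKM in Spry1_KO and 5.08, 9.25 and 5.89 FPKM in Control samples. The Langerhans cell marker Cd207 fell too, with 6.87, 8.14 and 12.2 FPKM in Spry1_KO and 45.5, 63.3 and 33.6 FPKM in Control samples. The part of these cells in the results for the targets was not tested. Cd44, a hyaluronan receptor, read 92.6, 87.8 and 85.8 FPKM in Spry1_KO and 31.4, 39.5 and 31.3 FPKM in Control samples, and rose by 1.36 ± 0.11 (SE; limma adjusted p = 0.000136). Itga5, a fibronectin receptor subunit of migrating keratinocytes, rose by 1.19 (limma adjusted p = 0.000152). Plaur, the urokinase receptor, read 2.83, 1.74 and 3.41 FPKM in Spry1_KO and 0.126, 0.0627 and 0.0784 FPKM in Control samples (limma adjusted p = 0.000483, higher). The collagenase gene Mmp13 read 4.13, 1.90 and 3.82 FPKM in Spry1_KO and 0, 0.0205 and 0.0192 FPKM in Control samples (limma adjusted p = 0.000482, higher). The log2 fold changes of Plaur and Mmp13 were 1.72 and 2.04 with a pseudocount of 1, 3.83 and 4.83 with 0.1, and 4.73 and 7.21 in limma-voom on recovered reads, where Mmp13 had 0, 1 and 1 reads in the Control samples. Mmp9, the gelatinase gene, was the target that fell, with 1.2, 0.537 and 1.17 FPKM in Spry1_KO and 14, 18 and 11.5 FPKM in Control samples (limma adjusted p = 7.67e-05). Hbegf, an EGF receptor ligand named after its values were seen, read 54.8, 41.0 and 37.4 FPKM in Spry1_KO and 2.77, 8.37 and 46.0 FPKM in Control samples (limma adjusted p = 0.0882), with Control replicate 3 inside the Spry1_KO range as for Fosl1, and rose by 2.91 without that sample (0.00156).

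**Figure D5:**
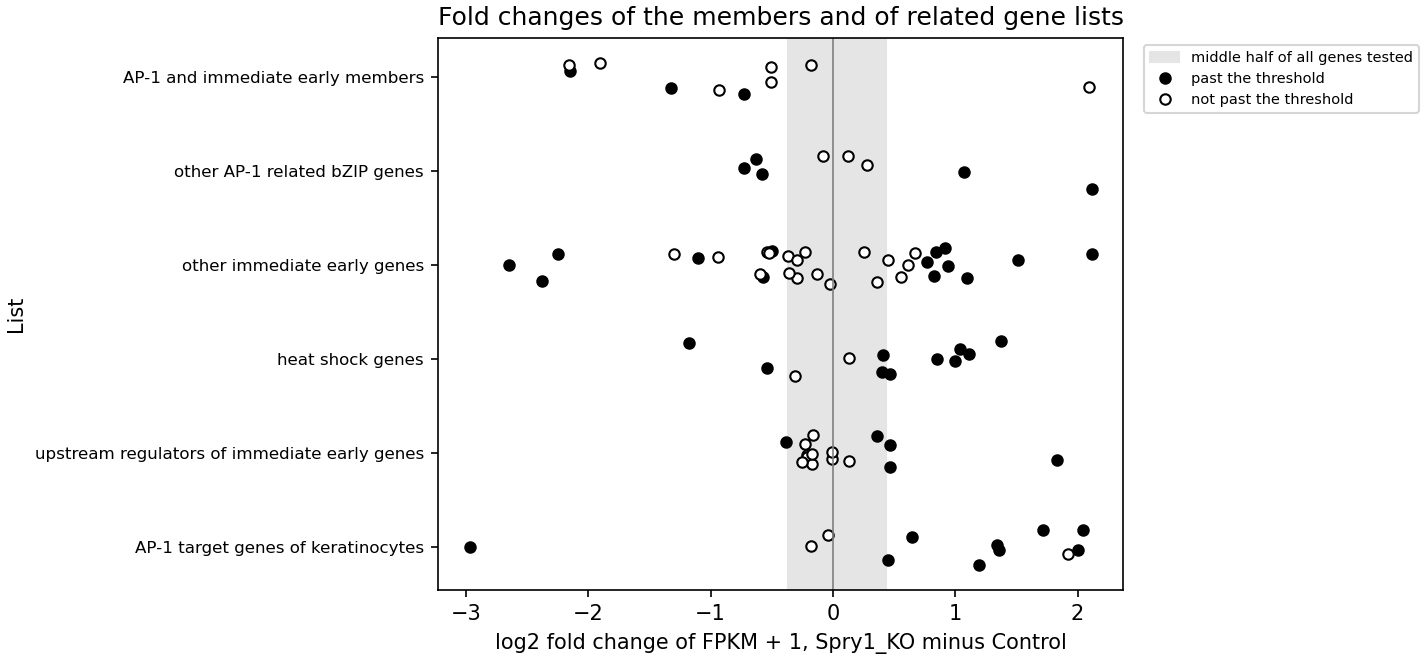
Log2 fold change of FPKM + 1, Spry1_KO minus Control, of the members and of each related list, a point per tested gene, filled where it passed limma at an adjusted p under 0.05; the grey band runs from -0.37 to 0.43 and marks the quartiles of all genes tested. Of the members 3 are filled, all below 0, and of the AP-1 targets 8 are filled above 0 and 1 below.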

How the data were processed

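Back epidermis was profiled by RNA-seq in 3 Spry1_KO and 3 Control samples, grouped by title. FPKM values, 1 column per sample, are what the authors deposited. HISAT2 2.0.5, featureCounts 1.5.0-p3 and the build GRCm38 are named in the submitters' processing notes, while the annotation, the strandedness and the way FPKM was computed are not stated there or in the labels. Positions and exon lengths were looked up by gene ID in GENCODE M21 (GRCm38), with 54495 IDs found, and 27 gene names stored as dates were replaced. FPKM times exon length gave whole reads, within 0.1, in 97.0% to 97.3% of values (20% by chance). The totals the authors scaled by were 88.1% to 95.6% of the recovered reads in Spry1_KO and 98.8% to 102.9% in Control samples.

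Genotypes were compared by limma 3.58.1 (R 4.3.3) using a variance trend on log2(FPKM + 1). It was two-sided, had no term beside genotype, and covered genes averaging at least 1 FPKM. As the mean ran over both genotypes, a gene under 1 FPKM in one was tested only if higher in the other. The Benjamini-Hochberg adjustment ran over all genes tested. A fold change on this scale understates that of low genes. Intervals are 95% intervals from the same fit. Named genes were Spry1, the members, up to 4 called genes with the lowest p per direction of each list and the 5 genes most like Fos, except where stated. A gene that this rule selects is not reported here. The members and lists were chosen with earlier results of these data known. The test was checked on simulated reads with the same spread set for every gene, so the check does not cover genes that vary as widely as the members. Replicates of a genotype differed by 12 to 68.2 in chi-square per gene, more than sampling noise. Alternatives were a pseudocount of 0.1, no filter, scaling by TPM or by median ratio, a replicate block, array weights, limma-voom on recovered reads with a mean of at least 10 and trimmed-mean scaling, and leaving out each sample or Control replicate 3 with Spry1_KO replicate 2. Scaling to recovered reads was added after seeing the data. Figures were drawn with matplotlib 3.10.9.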

Additional observations from a re-analysis of the deposited data

How the results depend on the processing

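The count of genes called stayed within 1.5 times of 6815 in all 15 alternatives. The count of members called was 3, and 1 with no filter, 5 under TPM scaling, 6 in limma-voom and 1 to 4 with 1 sample left out. The counts were 4 to 8 for other bZIP genes with 1 sample left out, against 5, and 8 for upstream regulators under TPM scaling, array weights or scaling to recovered reads and 5 to 8 with 1 sample left out, against 5. Log2 fold changes with 1 sample left out were -2.45 to -1.10 for Fos, -2.69 to -1.43 for Fosb, 1.43 to 3.24 for Fosl1, -1.70 to -0.84 for Jun, -0.44 to 0.12 for Junb, -0.86 to -0.50 for Jund, -2.99 to -1.16 for Atf3 and -0.73 to -0.26 for Ier2. Calls were gained for Fos (-2.18) and Atf3 (-2.46) under TPM scaling, for Fos (-1.93), Fosl1 (2.57) and Atf3 (-2.21) in limma-voom, for Fos scaled to recovered reads (-2.03) and for Fosl1 with array weights (2.88). Without Control replicate 3 and Spry1_KO replicate 2 together Fosl1 was called (3.28), Jun was not (-1.28) and Junb turned (0.09), as it did with array weights (0.14). With no filter, where 28340 genes were tested, Fosb (-2.15) and Jun (-1.32) were not called. Atp23, not called at 0.05, turned with TPM scaling (-0.16), without Control replicate 1 (-0.01), without Spry1_KO replicate 1 (-0.06) and when scaled to recovered reads (-0.03), and had -0.06 to 0.20 with 1 sample left out. Nr4a1, not called at -0.60, turned with array weights (0.30), without Control replicate 3 (0.50) and when Spry1_KO replicate 2 was left out as well (0.51), and had -1.40 to 0.50 with 1 sample left out. Of 554 values for 37 other named genes, Hspa1b and Batf not among them, 524 kept direction and call, 17 lost the call, 6 gained it and 7 turned. The causes were not tested. Spry1 had -4.43 with a pseudocount of 0.1 and -4.55 in limma-voom.

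The replicate numbers were given no shared source by the labels, and deviations of same-numbered samples correlated at -0.098, -0.111 and -0.125, with no sample closest to its own number. With the replicate number as a block 5834 genes and 2 members were called, Fosl1 (2.09) gaining the call and Fosb (-2.15) and Jun (-1.32) losing it.

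Depth gave each member at least 33 reads in every sample, and with 3 samples a group the spread between samples sets the width of the intervals.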
